A study of Mus musculus with 6 samples.

Results

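Keratins are the proteins of the epithelial cytoskeleton, and this account covers the 38 protein-coding keratin genes among 25700 genes counted in mouse incisors. Members were taken by name alone: each symbol had to be Krt followed by digits and at most 1 letter, which leaves keratin-associated proteins out, and each gene had to be annotated as protein coding. One further symbol of that form, Krt74, was annotated as a pseudogene and set aside. Bulk RNA was sequenced from the proximal incisor of 5-week-old C57BL/6 mice. The knockout group, called cKO here, was Gli1-CreERT2;Runx2fl/fl (3 mice), and the control group was Runx2fl/fl without Cre (3 mice). Both groups carried the floxed Runx2 alleles, and the labels attach the same tamoxifen protocol to all 6 samples (1.5 mg per 10 g daily for 3 days at 1 month of age); tissue was taken 1 week after induction. The Gli1 promoter drives the Cre in cKO mice; Gli1 is a hedgehog pathway factor found in incisor mesenchymal stem cells, and descendants of recombined cells inherit the deletion. Where recombination took place was not measured. Because only cKO mice carried Cre, an effect of Cre cannot be told apart from that of the deletion.

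Keratin filaments are built from pairs, each of 1 type I protein and 1 type II protein. Type I genes lie in a cluster on chromosome 11 and type II genes in a cluster on chromosome 15, where the type I gene Krt18 also sits. Keratins are known for marking which kind of epithelium a cell belongs to: Krt5 and Krt14 form the filaments of basal cells, Krt8 and Krt18 those of simple epithelia, Krt1 and Krt10 those of differentiating epidermis, and a further group builds the hair follicle. Krt6a, Krt6b, Krt16 and Krt17 are called stress keratins because skin keratinocytes switch them on after wounding, although some epithelia express them without injury. In the incisor the dental epithelium forms enamel beside the mesenchyme. Of the 38 genes, 18 were on chromosome 11 and 20 on chromosome 15 (build mm10).

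Total counts were 62415177 to 66366749 in cKO libraries and 53525185 to 66694240 in control libraries, so that 1 count was worth 0.0149 to 0.0186 CPM (counts scaled to 1000000 per library, with TMM scaling). The targeted gene Runx2 measured 62.6, 54.0 and 49.0 CPM in cKO mice against 79.7, 77.7 and 81.2 CPM in controls (log2 fold change -0.53, edgeR adjusted p = 0.0714), and Gli1 measured 70.6 to 77.9 CPM against 89.7 to 207 CPM (log2 fold change -1.03, edgeR adjusted p = 0.131). Neither passed the threshold of 0.05, but both were lower in every cKO mouse. The labels call the tissue dental mesenchyme, and its 10 markers summed to 18764 to 33832 CPM in cKO mice and 9318 to 16146 CPM in controls. Most of that sum was the collagen gene Col1a1, at 16775 to 31831 CPM in cKO mice and 8127 to 14617.5 CPM in controls. Epithelium was in the samples as well: 12 general epithelial markers, including Cdh1 and Epcam, summed to 1065 to 1403 CPM in cKO mice and 1272 to 1519 CPM in controls, and 4 secretory-stage enamel genes summed to 22163 to 46682 CPM in cKO mice and 60042 to 79540.5 CPM in controls. Libraries stood apart in 4 ways. The 5 maturation-stage enamel markers summed to 2624, 1445 and 1107 CPM in cKO 1 to 3, to 1798 CPM in control 2 and to only 112 and 98.0 CPM in controls 1 and 3. Skeletal muscle markers reached 336 CPM in control 1 against at most 15.6 CPM elsewhere. Neutrophil markers reached 40.7 and 18.7 CPM in cKO 1 and cKO 2 and were at most 2.52 CPM in the others. Control 1 was the only male (Xist 0.596 CPM, against at least 2865 CPM in the other 5 mice). In bulk RNA, fewer epithelial cells and less keratin RNA per cell cannot be told apart.

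Promoter windows of 4 keratins are shown first, taken from the RefSeq table (GRCm38.p6, which is mm10). They were picked for large fitted log2 fold changes, 4.05 for Krt25, 2.91 for Krt24 and -1.20 for Krt82, the lowest among tested keratins. The order of size among the keratins changed when some single mice were left out. Krt27 is a class mate of Krt25 in the same gene cluster. Each runs 5′ to 3′ on the gene's strand, from 250 bases before the annotated start to 50 after it. Krt25 and Krt24 were higher in every cKO mouse, and Krt27 and Krt82 were lower. For Krt25 and Krt24 only cKO libraries were over the filter on low counts, so these 2 had to be higher in cKO mice. Krt25 and Krt27 encode type I keratins of the inner root sheath of the hair follicle. Capitals mark the TATA box letters TATAAA in Krt25 and Krt27, and the letters TGTGGT or TGCGGT, the core that RUNX proteins bind, in Krt24 and Krt82, where ACCGCA is TGCGGT read on the other strand.
Krt25, chr11:99322902-99323201, minus strand: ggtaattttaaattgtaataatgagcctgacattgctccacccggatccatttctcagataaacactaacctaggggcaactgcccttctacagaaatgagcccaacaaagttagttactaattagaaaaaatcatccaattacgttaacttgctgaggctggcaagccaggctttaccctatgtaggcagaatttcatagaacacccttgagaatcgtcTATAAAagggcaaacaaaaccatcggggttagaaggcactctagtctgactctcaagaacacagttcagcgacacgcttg
Krt27, chr11:99351069-99351368, minus strand: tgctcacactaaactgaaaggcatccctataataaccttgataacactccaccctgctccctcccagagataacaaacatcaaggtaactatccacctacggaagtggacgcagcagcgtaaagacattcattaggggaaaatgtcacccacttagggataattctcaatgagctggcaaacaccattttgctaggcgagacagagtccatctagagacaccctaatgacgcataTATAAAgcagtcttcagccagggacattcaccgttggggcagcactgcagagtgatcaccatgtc
Krt24, chr11:99285213-99285512, minus strand: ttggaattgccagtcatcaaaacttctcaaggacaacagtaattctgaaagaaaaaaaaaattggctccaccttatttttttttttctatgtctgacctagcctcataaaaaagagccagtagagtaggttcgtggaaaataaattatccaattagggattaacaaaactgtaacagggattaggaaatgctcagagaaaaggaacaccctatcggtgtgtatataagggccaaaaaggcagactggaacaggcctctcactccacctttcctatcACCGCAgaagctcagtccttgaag
Krt82, chr15:101550610-101550909, minus strand: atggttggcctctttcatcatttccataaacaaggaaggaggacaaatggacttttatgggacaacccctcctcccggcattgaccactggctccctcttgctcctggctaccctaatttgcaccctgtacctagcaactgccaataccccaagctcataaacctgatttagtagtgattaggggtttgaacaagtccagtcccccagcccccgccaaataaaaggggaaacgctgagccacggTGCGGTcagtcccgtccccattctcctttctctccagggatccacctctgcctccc
Promoters were found for 25 of the 38 genes. Either strand held TATAAA in 11 of the 25 (44%), against 13.6% of 32851 mouse promoters of the same length. The RUNX letters stood in 4 of the 25 (16%), against 22.4% of all, and the AP-1 letters TGANTCA in 1 of 25 (4%, Krt13), against 7.81%. None of these motifs overlapped another in the 4 windows shown. Krt6b, Krt71 and Krt76 had larger absolute log2 fold changes than Krt82, at 2.88, 1.90 and 1.68. The windows of Krt71 and Krt76, not shown, held TATAAA and no RUNX letters. Krt6a and Krt6b were among the genes without a promoter window. A match is a description of the letters only.

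The keratin pool of the proximal incisor consisted mainly of Krt5, Krt14 and Krt17 in both groups, and its summed level did not separate them. All 38 genes together measured 3102, 2442 and 1920 CPM in cKO mice and 2014, 2269 and 2638 CPM in controls, and the groups overlapped. Set per kilobase of exonic sequence, Krt5 was at 508 ± 133 CPM per kb in cKO mice and 457 ± 61.5 in controls (SD, n = 3 each), Krt14 at 394 ± 104 and 303 ± 45.4, and Krt17 at 241 ± 56.6 and 324 ± 78.5. Within each mouse Krt5 was above Krt14 in 6 of 6, while Krt14 was above Krt17 in every cKO mouse and, among controls, in control 2 only. Krt15 followed at 94.5 ± 20.0 and 56.3 ± 3.75 CPM per kb. Every other keratin averaged at most 11.4 CPM per kb in either group, the highest being Krt80, Krt8, Krt6a and Krt73. Altogether 18 keratins averaged at least 1 CPM over the 6 mice and 20 were below.

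**Figure D1:**
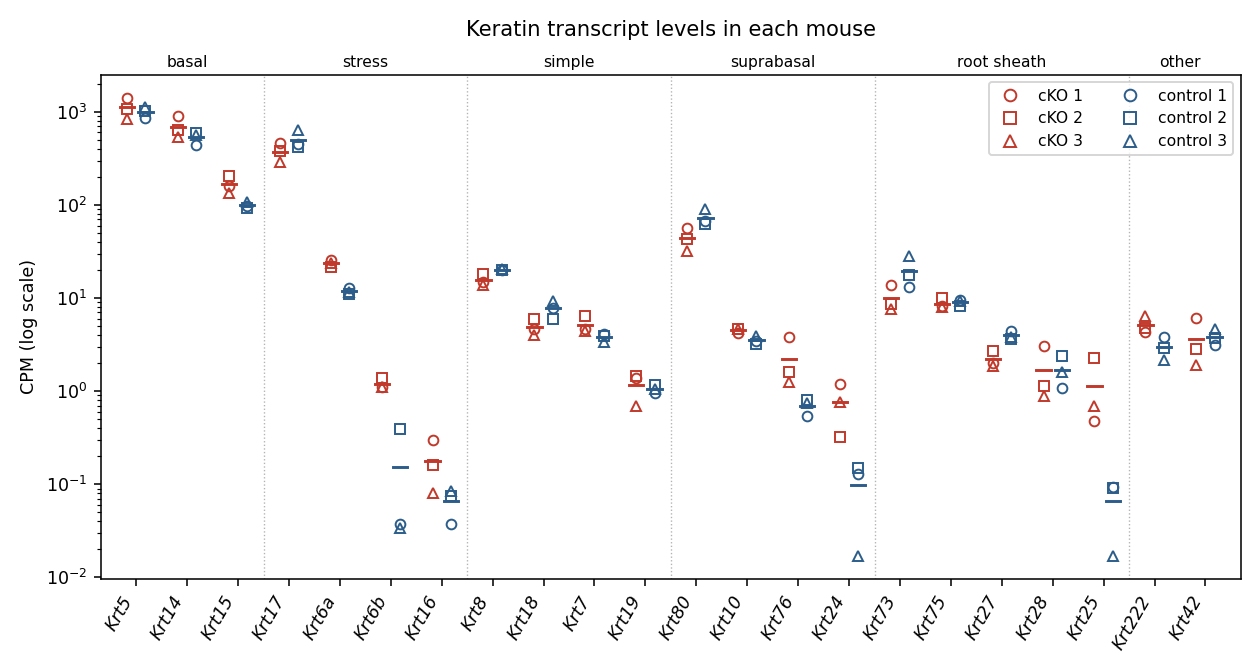
Level of each keratin that averaged at least 1 CPM, of all 4 stress keratins and of Krt24 and Krt25, in CPM on a log axis; symbols are single mice and short lines are group means, with cKO in red and control in blue (n = 3 each). Krt5, Krt14 and Krt17 stand between 286 and 1424 CPM in all 6 mice, and the groups are apart for Krt6a, at 21.7 to 25.7 CPM in cKO mice and 11.1 to 12.8 CPM in controls.

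The make-up of that pool differed between the groups more than its size. Krt17 supplied 18.6%, 19.1% and 18.6% of the length-scaled keratin level in cKO mice, against 27.8%, 22.9% and 30.2% in controls. Krt14 supplied 31.8%, 28.8% and 31.0% in cKO mice against 24.2%, 29.0% and 23.2% in controls, with control 2 inside the cKO range. Krt5 held nearly the same place, at 39.3% ± 0.999 in cKO mice and 38.2% ± 0.894 in controls (SD, n = 3 each). Krt15 supplied 5.69%, 9.18% and 7.69% in cKO mice against 5.30%, 4.53% and 4.40% in controls, without overlap. As classes, the 3 basal keratins made up 77.4% ± 0.549 in cKO mice and 68.4% ± 3.90 in controls, and the 4 stress keratins 19.6% ± 0.307 and 27.4% ± 3.67 (SD, n = 3 each), almost all of it Krt17. Shares of 1 pool are tied to each other and were not tested.

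**Figure D2:**
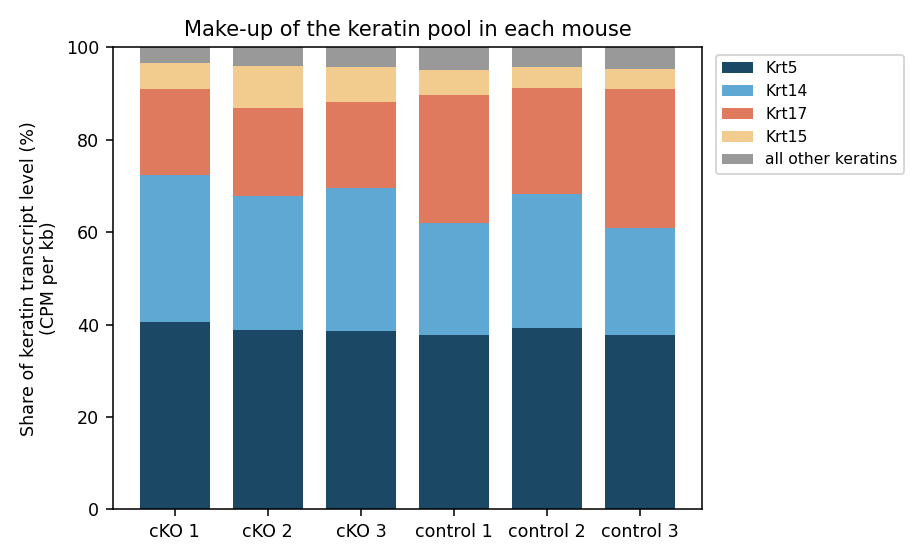
Share of the summed keratin level (CPM per kilobase of exonic sequence, in percent) held by Krt5, Krt14, Krt17, Krt15 and all other keratins in each mouse, cKO mice on the left and control mice on the right. The Krt17 share is 18.6% to 19.1% in cKO mice and 22.9% to 30.2% in controls.

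Of the 38 genes, 27 passed the filter on low counts and were tested, and 11 were not, none of which had more than 19.8 counts in any library. Only Krt6a passed the threshold: 1 of 27 was called higher and 0 lower in cKO mice (edgeR quasi-likelihood test, adjusted p under 0.05 over all genes). Across the transcriptome 4 genes, or 0.0208% of 19264, were called higher and 1, or 0.00519%, lower (0.026% in either direction). At an unadjusted p under 0.05, edgeR had 10 keratins higher and 6 lower, against 8.71% and 8.55% of all genes tested (17.3% in either direction). DESeq2 gave an adjusted p for 24 of the 27 and called 7 higher and 5 lower, against 3.93% and 3.55% of 17741 genes with such a value (7.48% in either direction). Every cKO mouse lay above every control for 10 of the 27 keratins (37.0%) and below for 6 (22.2%), against 11.1% and 12% of all genes tested (23.1% in either direction). Of the 10, 4 (Krt6b, Krt24, Krt25 and Krt71) passed the filter through the cKO libraries. No control library was over it for Krt24, Krt25 and Krt71, so these had to differ. For Krt6b 1 control library was over it, so the filter favoured a difference without fixing it. The counts are therefore no support for a shift of the family. The median log2 fold change of the 27 was 0.15, against 4.85e-05 for all genes tested, with 15 above 0 and 12 below. Leaving out 1 mouse moved the edgeR count: 0 keratins were called without any one of the cKO mice, without control 1 or without control 3, and 2 (Krt6a and Krt6b) without control 2, where 0.366% of all genes were called.

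**Figure D3:**
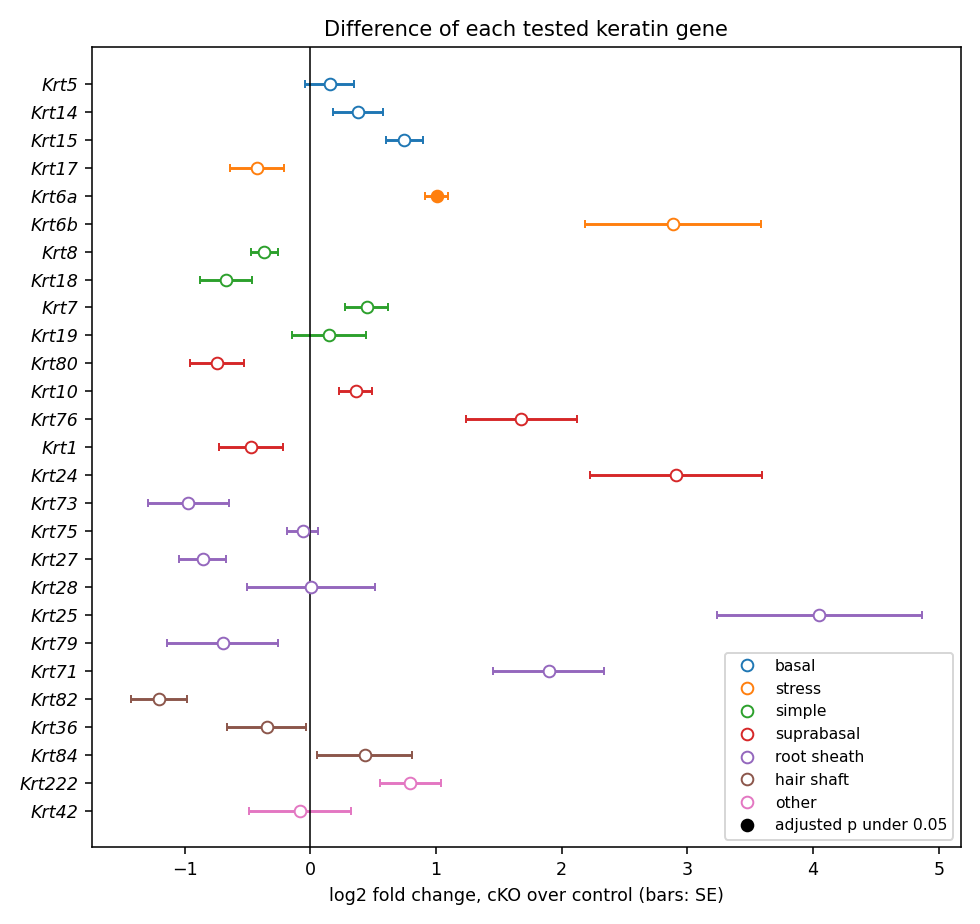
Log2 fold change of cKO over control for the 27 tested keratins (points) with standard errors (bars), from the edgeR fit to 3 cKO and 3 control mice, coloured by class. The filled point, Krt6a at 1.00, is the only one past the adjusted p threshold of 0.05, and the others run from -1.20 (Krt82) to 4.05 (Krt25).

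The 3 basal keratins were at or above their control level, and none passed the test. Krt5 (chromosome 15, 101707070 to 101712898) measured 1424, 1081 and 842 CPM in cKO mice and 865, 1010 and 1135 CPM in controls. The ranges overlapped, with cKO 1 the highest and cKO 3 the lowest of the 6 (log2 fold change 0.15, SE 0.198, edgeR adjusted p = 0.742). Its partner Krt14 (chromosome 11, 100203162 to 100207548) measured 896, 640 and 540 CPM in cKO mice and 444, 597 and 559 CPM in controls. These groups overlapped too, since cKO 3 lay below controls 2 and 3 (log2 fold change 0.38, SE 0.199, edgeR adjusted p = 0.386). Krt15, a keratin of basal cells that also marks stem cells of the hair follicle bulge (chromosome 11, 100131758 to 100135928), measured 161, 205 and 135 CPM in cKO mice and 97.7, 93.9 and 107 CPM in controls. Here every cKO mouse was above every control, but the difference did not pass (1.68-fold, log2 0.75, SE 0.146; edgeR adjusted p = 0.0878, DESeq2 adjusted p = 0.000125). General epithelial markers did not move up beside them: 12 of 12 had a log2 fold change below 0, with a median of -0.39, 0 called and 4 lower at an unadjusted p under 0.05, against 8.55% of all genes. St14, a membrane serine protease of epithelia, averaged 56.9 ± 15.8 CPM in cKO mice and 93.5 ± 13.9 in controls, and the splicing regulator Esrp1 40.2 ± 6.71 and 58.9 ± 11.7 CPM (SD, n = 3 each; edgeR adjusted p = 0.148 and 0.173).

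Of the 4 stress keratins, 3 were tested, with Krt6a and Krt6b above 0 and Krt17 below. Krt6a, a type II keratin (chromosome 15, 101689910 to 101694307), measured 25.7, 21.7 and 23.6 CPM in cKO mice and 12.8, 11.1 and 11.5 CPM in controls. The groups were well apart and each was tight, and Krt6a rose 2.01-fold (log2 1.00, SE 0.0917; edgeR adjusted p = 0.0402). Its adjusted p by edgeR was 0.120, 0.103 and 0.0592 without cKO 1, cKO 2 or cKO 3, 0.116 without control 1 and 0.0983 without control 3, and 0.532 with the maturation-stage enamel level as a covariate, while the log2 fold change stayed between 0.94 and 1.07 in all 13 alternatives. Krt6b, the near copy of Krt6a beside it (chromosome 15, 101676023 to 101680287), had 73.9, 87.1 and 70.1 counts in cKO mice and 1.9, 25.8 and 1.8 counts in controls. All cKO mice were above all controls, and control 2 stood far from the other controls. The ratio of the summed Krt6b counts, scaled for depth, was 7.20 (95% Clopper-Pearson interval 4.91 to 10.9, counting error only). The difference did not pass by edgeR (log2 fold change 2.88, SE 0.700, edgeR adjusted p = 0.116) but did by DESeq2 (DESeq2 adjusted p = 0.00392). By edgeR it passed without control 2, which held 25.8 of the control counts (log2 fold change 5.01, edgeR adjusted p = 0.0238). The 2 genes share sequence: of all 75-base windows in Krt6a transcripts, 51.1% occur in some other gene and 33.0% in Krt6b, and 36.9% of those of Krt6b occur in Krt6a. Krt6b stood at 4.30%, 6.41% and 4.75% of the Krt6a level in cKO mice and at 0.290%, 3.52% and 0.294% in controls, so the 2 counts did not keep 1 ratio across libraries. How reads that fit both genes were counted is not stated, so the levels of each are uncertain to that extent. An antisense transcript that covers 19.5% of the Krt6a exonic bases was at no more than 0.0961 CPM in any mouse.

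Krt17, the abundant member of the stress group (chromosome 11, 100256217 to 100261029), measured 462, 375 and 286 CPM in cKO mice and 450, 417 and 642 CPM in controls. The groups overlapped (log2 fold change -0.43, SE 0.217, edgeR adjusted p = 0.368). Krt16 is the type I keratin that pairs with Krt6a in stressed skin. It had 19.8, 9.8 and 5.4 counts in cKO mice and 2.2, 5.4 and 5.4 in controls and was not tested. Its depth-scaled ratio was 2.52 (interval 1.30 to 5.18, counting error only), and the groups overlapped. Of its windows, 28.9% occur in another gene.

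**Figure D4:**
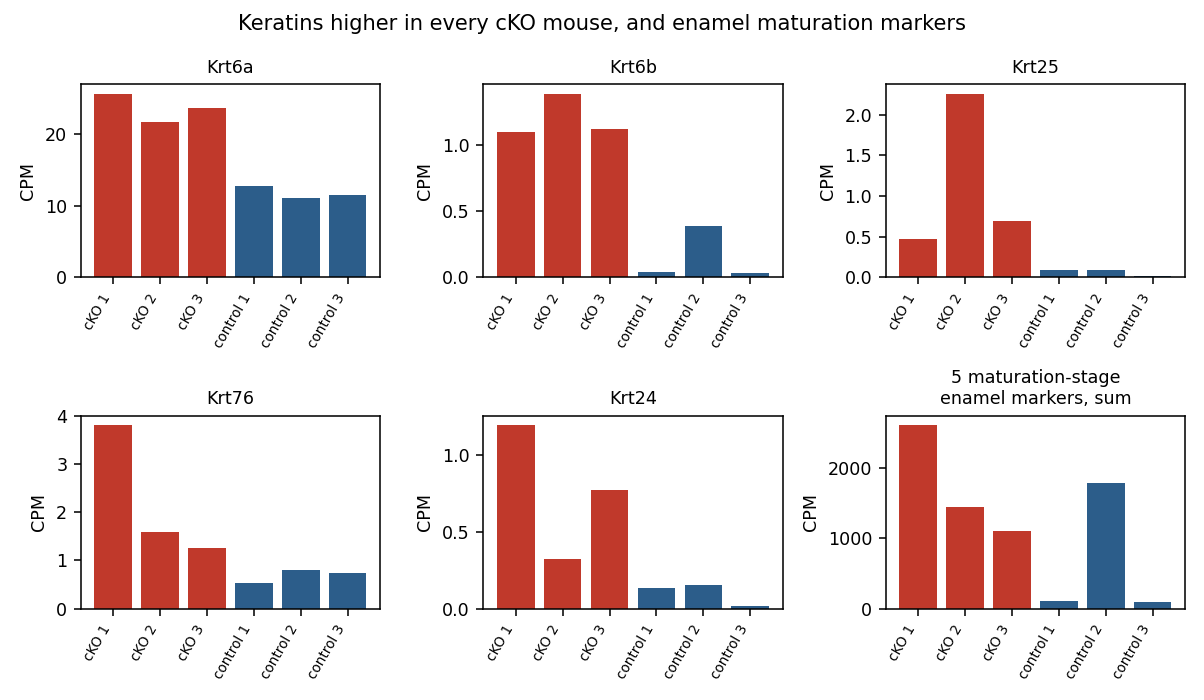
CPM in each mouse (bars) of Krt6a, Krt6b, Krt25, Krt76 and Krt24 and the summed CPM of 5 maturation-stage enamel markers, cKO mice in red and control mice in blue. Krt6b is 0.391 CPM in control 2 against 0.0372 and 0.0338 CPM in controls 1 and 3, and the enamel markers are 1798 CPM in control 2 against 112 and 98.0 CPM.

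Maturation-stage enamel markers stood high in the same 4 libraries in which Krt6b did. All 5 markers had a log2 fold change above 0 (median 1.37) and none passed. Slc24a4, an ion exchanger of maturing enamel, measured 141, 50.8 and 34.5 CPM in cKO mice and 5.55, 58.1 and 3.95 CPM in controls, and the enamel protease Klk4 measured 129, 90.5 and 68.6 CPM and 5.64, 85.0 and 4.12 CPM. In control 2, where these markers were within or near the cKO range, Krt6a was 11.1 CPM, the lowest of the 6 mice, and Krt25, Krt76 and Krt24 were at 0.0902, 0.797 and 0.150 CPM. Control 1 was close to these levels, at 0.0931, 0.540 and 0.130 CPM, and control 3 was lower for Krt25 and Krt24, at 0.0169 CPM each. A fit with the maturation-stage enamel level as a covariate was added after seeing the data. As mean log2 CPM, centred, that level was 1.90, 0.991 and 0.892 in cKO mice and -2.41, 1.515 and -2.89 in controls. Only control 2 kept it from following genotype, so the fit cannot tell enamel stage and genotype apart. A cause was not tested. In this fit the log2 fold change of Krt6b was 1.98 in place of 2.88 (edgeR adjusted p = 0.552). That of Krt24 was 2.11 in place of 2.91 (edgeR adjusted p = 0.659), and that of Krt76 1.26 in place of 1.68 (edgeR adjusted p = 0.740). For Krt25 it was 4.06 in place of 4.05 (edgeR adjusted p = 0.600), and for Krt6a 1.05 in place of 1.00 (edgeR adjusted p = 0.532).

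Ratios within a library show how the keratins stood to each other in the same RNA. The log2 ratio of Krt6a to Krt5 was -5.79, -5.64 and -5.16 in cKO mice and -6.07, -6.51 and -6.62 in controls, and all cKO values were the higher ones. Krt6a to Krt17 was -4.17, -4.11 and -3.60 in cKO mice and -5.13, -5.23 and -5.80 in controls, a difference of 1.43 between the group means. Krt17 to Krt14, both type I, was -0.96, -0.77 and -0.92 in cKO mice and 0.018, -0.52 and 0.20 in controls, again without overlap. Krt17 to Krt5 was -1.62, -1.53 and -1.56 in cKO mice and -0.94, -1.28 and -0.82 in controls. The basal pair Krt5 to Krt14 differed least in size, at 0.69 ± 0.061 in cKO mice and 0.91 ± 0.138 in controls (SD, n = 3 each). Krt1 to Krt10 was -2.73 ± 0.128 in cKO mice and -1.93 ± 0.264 in controls, and Krt8 to Krt18 was 1.70 ± 0.085 and 1.41 ± 0.297, and the groups overlapped for Krt8 to Krt18. Krt15 to Krt14 overlapped as well, at -2.48 to -1.64 in cKO mice and -2.67 to -2.18 in controls. These ratios were described without a test.

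**Figure D5:**
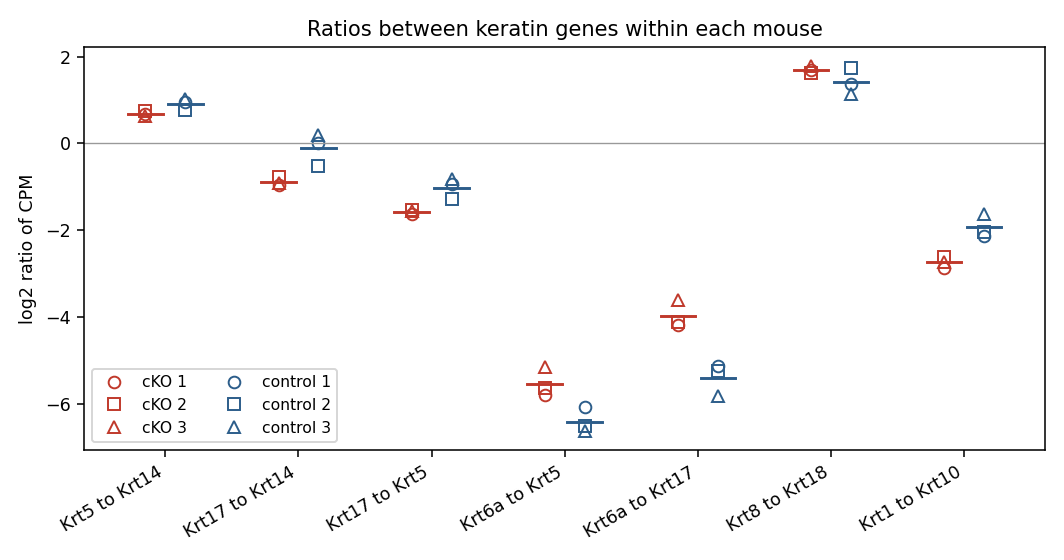
Log2 ratio of the CPM of 1 keratin to that of another within each mouse (symbols), with group means (lines), cKO in red to the left of control in blue for each pair. Krt17 to Krt14 lies between -0.96 and -0.77 in cKO mice and between -0.52 and 0.20 in controls.

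Among the simple-epithelium keratins, members were found on both sides of 0 and none passed. Krt8 (chromosome 15, 101996698 to 102004482) measured 14.99, 18.3 and 13.9 CPM in cKO mice and 20.2, 19.9 and 20.7 CPM in controls. Krt18, its partner and neighbour (102028180 to 102032027), measured 4.64, 5.95 and 4.003 CPM in cKO mice and 7.89, 6.00 and 9.36 CPM in controls. Both were lower in every cKO mouse, Krt18 by a narrow margin between cKO 2 and control 2 (log2 fold changes -0.37 and -0.67, SE 0.107 and 0.209, edgeR adjusted p = 0.159 and 0.179; by DESeq2 0.0519 and 0.0363). As much as 22.0% of the Krt8 windows also occur in the pseudogene Krt8-ps. Krt7, a keratin of ducts and other simple epithelia, lay the other way, at 4.70, 6.37 and 4.48 CPM in cKO mice and 4.08, 3.92 and 3.40 CPM in controls (log2 fold change 0.45, edgeR adjusted p = 0.242). Krt19 overlapped between groups, at 0.689 to 1.46 CPM in cKO mice and 0.949 to 1.17 CPM in controls, and Krt20 had at most 8 counts.

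Of 10 keratins of suprabasal and differentiated stratified epithelium, 5 were tested, 3 above 0 and 2 below, and none passed. Krt80, a type II keratin of differentiating epithelia and the most abundant of them (chromosome 15, 101347444 to 101370162), measured 56.0, 42.8 and 32.1 CPM in cKO mice and 68.1, 61.7 and 89.5 CPM in controls. All cKO mice were below all controls (log2 fold change -0.74, SE 0.217; edgeR adjusted p = 0.158, DESeq2 adjusted p = 0.0133). Krt76, a keratin of the oral palate and gum (chromosome 15, 101884351 to 101892920), measured 3.82, 1.60 and 1.27 CPM in cKO mice and 0.540, 0.797 and 0.743 CPM in controls. It was higher in every cKO mouse and widest apart in cKO 1 (log2 fold change 1.68, SE 0.442; edgeR adjusted p = 0.132, DESeq2 adjusted p = 0.00553), and without cKO 1 its log2 fold change was 1.04 (edgeR adjusted p = 0.171). Krt24 (chromosome 11, 99279959 to 99285262) had 80, 20 and 48 counts in cKO mice and 7, 10 and 1 counts in controls. Its depth-scaled ratio was 7.69 (interval 4.70 to 13.3, edgeR adjusted p = 0.110, DESeq2 adjusted p = 0.00291). Only its cKO libraries were over the filter on low counts, so that direction was fixed in advance. Krt10 measured 4.25, 4.70 and 4.64 CPM in cKO mice and 3.50, 3.19 and 3.92 CPM in controls (log2 fold change 0.36, edgeR adjusted p = 0.223), while its epidermal partner Krt1 measured 0.582 to 0.768 CPM and 0.782 to 1.27 CPM (log2 fold change -0.47, edgeR adjusted p = 0.397). Krt4 and Krt13, the pair of the oral and oesophageal lining, had at most 3 and 5 counts in any library. Markers of oral mucosa and cornified epithelium summed to 380 to 493 CPM in cKO mice and 370 to 475 CPM in controls, with 3 of 6 tested above 0 and none called. Most of that sum was Dsc3 (295 to 373 CPM in cKO mice, 280 to 373 CPM in controls) and Sfn (46.9 to 98.0 and 75.8 to 90.0 CPM). No other member exceeded 26.4 CPM in any mouse. In that list the secreted protein Sbsn averaged 7.43 ± 0.850 CPM in cKO mice and 6.08 ± 0.545 in controls (SD, n = 3 each), and the desmosomal cadherin Dsg3 measured 9.12, 6.24 and 26.4 CPM in cKO mice and 2.25, 14.0 and 2.28 CPM in controls.

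Keratins of the hair root sheath and its companion layer were all tested, 7 of 7, with 3 above 0, 4 below and none called. Krt25 (chromosome 11, 99315516 to 99322951), whose promoter is printed above, had 31.6, 140.8 and 42.7 counts in cKO mice and 5, 6.2 and 1 counts in controls. It was higher in every cKO mouse, with cKO 2 far above the other 2, at a depth-scaled ratio of 16.8 (95% Clopper-Pearson interval 9.39 to 32.9, counting error only; edgeR adjusted p = 0.0878, DESeq2 adjusted p = 2.93e-05). Only its cKO libraries were over the filter on low counts, so that direction was fixed in advance. Its fitted log2 fold change was 4.05, and 3.09 without cKO 2 (edgeR adjusted p = 0.134). Krt27 (chromosome 11, 99345565 to 99351104) measured 2.01, 2.72 and 1.84 CPM in cKO mice and 4.45, 3.61 and 3.85 CPM in controls, all cKO mice lying below all controls (log2 fold change -0.86, SE 0.186; edgeR adjusted p = 0.0972, DESeq2 adjusted p = 0.00168). Krt25 shares 3.50% of its 75-base windows with Krt27, and Krt27 shares 4.54% of its own with Krt25. Krt25 stood at 23.7%, 82.9% and 37.4% of the Krt27 level in cKO mice and at 2.09%, 2.50% and 0.439% in controls. Krt28, the third type I keratin of this group, overlapped between groups, at 0.881 to 3.07 CPM in cKO mice and 1.08 to 2.39 CPM in controls.

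The type II root sheath keratins also lay on both sides. Krt73 (chromosome 15, 101793308 to 101802346) measured 13.7, 8.66 and 7.62 CPM in cKO mice and 13.0, 17.7 and 28.2 CPM in controls, with cKO 1 above control 1 (log2 fold change -0.97, SE 0.323; edgeR adjusted p = 0.200, DESeq2 adjusted p = 0.0251). Krt71 had 22, 26 and 16 counts in cKO mice and 2, 9 and 5 counts in controls, a ratio of 3.74 (interval 2.14 to 6.93; edgeR adjusted p = 0.108). Only its cKO libraries were over the filter on low counts, so that direction was fixed in advance. Krt75, the companion layer keratin, showed the least difference of the class apart from Krt28, at 7.94 to 10.1 CPM in cKO mice and 8.31 to 9.62 CPM in controls (log2 fold change -0.060, SE 0.123, edgeR adjusted p = 0.845).

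Hair shaft keratins were scarce. Of 6 members, 3 were tested, and the other 3 had at most 5.4 counts in any library. Krt82, of the hair cuticle (chromosome 15, 101541214 to 101550667), had 36, 38 and 31 counts in cKO mice and 81, 66 and 77 counts in controls, and the groups were clearly apart. Its log2 fold change was -1.20 (SE 0.221), with the lowest p among the keratins after Krt6a, and it did not pass (edgeR adjusted p = 0.0819, DESeq2 adjusted p = 0.00307). Krt36 and Krt84 overlapped between groups. The hair follicle and skin markers outside the family summed to 175 to 190 CPM in cKO mice and 166 to 175 CPM in controls, nearly all of it Msx2, a transcription factor that dental tissue also expresses, at 174 to 188 CPM and 163 to 173 CPM. The cadherin Dsg4 was at most 0.0640 CPM and the hair regulator Hoxc13 at most 0.203 CPM in any mouse. In that list Padi3, an enzyme that modifies hair proteins, averaged 0.784 ± 0.281 CPM in cKO mice and 1.39 ± 0.294 in controls, and the stem cell receptor Lgr5 0.232 ± 0.0837 and 0.473 ± 0.162 CPM (SD, n = 3 each), with 0 of 4 tested called.

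Krt222 and Krt42 fall outside these classes. Krt222 measured 4.36, 4.74 and 6.37 CPM in cKO mice and 3.84, 2.93 and 2.16 CPM in controls, all cKO mice lying above (log2 fold change 0.79, SE 0.242; edgeR adjusted p = 0.173, DESeq2 adjusted p = 0.0287). Krt42, a keratin of the mouse nail, measured 6.09, 2.83 and 1.92 CPM in cKO mice and 3.11, 3.71 and 4.68 CPM in controls, with wide overlap.

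Proteins that tie keratin filaments to junctions and to the cornified envelope gave no call either. Of 18 tested, 6 were above 0 and 12 below, with a median log2 fold change of -0.17, 0 called and 6 lower at an unadjusted p under 0.05, against 8.55% of all genes. Envoplakin, Evpl, averaged 50.6 ± 12.2 CPM in cKO mice and 83.3 ± 14.7 in controls, and dystonin, Dst, 589 ± 37.7 and 694 ± 23.4 CPM (SD, n = 3 each; edgeR adjusted p = 0.138 and 0.196). Desmoplakin, Dsp, which binds keratin at desmosomes, was level at 441 ± 89.8 CPM in cKO mice and 437 ± 48.0 in controls. The intermediate filaments of other cells and of the nucleus had 8 of 12 tested members above 0, with a median of 0.34 and 0 called. The nuclear lamins Lmnb1 and Lmna lay on opposite sides, Lmnb1 at 62.5 ± 7.54 CPM in cKO mice and 93.5 ± 10.8 in controls, and Lmna at 188 ± 6.67 and 156 ± 10.3 CPM (SD, n = 3 each; edgeR adjusted p = 0.0878 and 0.118). Secretory-stage enamel genes had 4 of 4 below 0 (median -0.91), 0 called and 4 lower at an unadjusted p under 0.05 by edgeR, against 8.55% of all genes. Among them the enamel matrix gene Enam was at 4334 ± 1305 CPM in cKO mice and 8610 ± 1215 in controls, and the enamel protease Mmp20 at 445 ± 31.4 and 544 ± 25.0 CPM (SD, n = 3 each; edgeR adjusted p = 0.120 and 0.140). Of the 10 mesenchyme markers, 8 were above 0 (median 0.30), 0 were called and 5 were higher at an unadjusted p under 0.05 by edgeR, against 8.71% of all genes. Pax9, a transcription factor of dental mesenchyme, was at 43.4 ± 3.70 CPM in cKO mice and 32.6 ± 2.34 in controls, and Col1a1 at 24213 ± 7530 and 11420 ± 3246 CPM (SD, n = 3 each; edgeR adjusted p = 0.0881 and 0.146). Their part in the keratin differences was not tested.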

How the data were processed

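RNA was measured in 6 libraries of 1 mouse each, made from total RNA with RNA integrity numbers above 9.0 and read for 75 cycles, single end, per the labels' protocols. Genotype labels gave the groups, and mice are numbered in accession order. STAR 2.6.1d, Partek and build mm10 are listed, per the submitters' processing notes, without settings; no label or header used here states the annotation release or whether counting used strand. Expected counts per gene, as deposited, were estimated by the authors, and 45.6% to 48.0% of the values per library were whole (within 1e-09). A second deposited table holds the authors' normalized signal for 20676 genes; every value equalled the count plus 1 times 1 factor per library, within 0.1%.

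Counts were rounded, filtered with filterByExpr (minimum count 10, minimum total 15), scaled by TMM and tested with edgeR 4.0.16 in R 4.3.3 (quasi-likelihood F-test, two-sided, Benjamini-Hochberg over 19264 genes, threshold 0.05). P-values measure the spread between mice. Alternatives were DESeq2 1.42.0, other scalings and filters, limma 3.58.1 on the log2 signal, leaving out each mouse, and, added after seeing the data, a covariate for maturation-stage enamel markers. Scripts were tested on simulated data. Exonic lengths, overlaps and 75-base windows came from GENCODE M21, whose coordinates matched all 39 keratin rows. Windows are exact matches in any transcript of another gene, on either strand. Intervals are 95% Clopper-Pearson and cover counting error only.

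The members, classes and lists were chosen with earlier results of these data known. Named genes are keratins past the threshold or averaging at least 1 CPM, the stress keratins, the keratin of lowest p and largest difference per class, and 2 genes of lowest p per other list. Krt1, Krt4, Krt13, Krt20, Krt36, Krt71, Krt84, Dsp, Dsc3, Sfn, Dsg4, Hoxc13, Msx2 and the Krt17, Krt15, Krt6b and Krt25 ratios were chosen after their values were seen.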

Additional observations from a re-analysis of the deposited data

How the results depend on the processing

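Krt6a stayed higher in all 13 alternatives. Its log2 fold change was 0.94 to 1.07 when 1 mouse was left out and 1.05 with the maturation-stage enamel covariate, and its adjusted p ran from 9.19e-16 (DESeq2) to 0.532 (that covariate). The threshold was missed with the covariate and in 5 of the 6 fits that left out a mouse, each of which has fewer samples; the adjusted p values stand in the report. The number of keratins called higher was 7 by DESeq2, 0 with the covariate and 0 to 2 without 1 mouse, and the number called lower was 5 by DESeq2 and 0 in every other alternative; the cause was not tested. Scaling, filter and the deposited signal changed neither count. In the other 26 keratins, 20 kept their direction in every alternative that could be fitted. The 6 that turned had reported log2 fold changes between -0.35 and 0.15. As log2 fold changes, with the range over fits that left out 1 mouse first, they were Krt5 (-0.059 to 0.32), Krt19 (-0.024 to 0.42, -0.028 with the covariate), Krt36 (only with the covariate, at 0.22), Krt42 (-0.69 to 0.22), Krt75 (-0.17 to 0.0021, 0.063 with the covariate) and Krt28 (-0.75 to 0.34, -0.14 with limma, -0.67 with the covariate). The partner ratios kept their direction without any 1 mouse. No paired analysis was possible because the labels give no replicate number shared between the groups. Depth limits the 20 keratins under 1 CPM unequally. Single counts move the level of the 11 not tested, which had at most 19.8 counts in any library. They also move the control level of Krt24, Krt25 and Krt71. Others, such as Krt82 with 31 to 81 counts per library, are less affected.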
